A study of Mus musculus with 27 samples.

Results

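The data examined here are the levels of 36 genes of DNA replication and cell division, chosen by name as a list of proliferation and mitosis genes, in bulk RNA-seq of the mouse brain. The count table holds 55487 genes, of which 20271 passed a minimum of 10 counts in at least 4 libraries, and all 36 members passed. Male C57Bl/6J wild-type mice, 8 weeks old, received a continuous infusion into the right lateral ventricle for 14 days at 0.25 μl/h, and cortex and hippocampus of the other hemisphere were sequenced. The groups were PBS (5 cortices and 5 hippocampi), pCtrl, a control IgG labelled mIgG (5 cortices and 4 hippocampi), and α-IgLON5#1, a pool of IgLON5-specific autoantibodies purified from patient plasma and labelled IgLON5 (4 cortices and 4 hippocampi). The sources differ on the control IgG, which the series' design text describes as a non-reactive human monoclonal antibody and the study's methods as serum IgG of a healthy individual, and the name pCtrl is used here for either. In all, 14 mice gave 27 libraries. The labels call the cells neurons, but each library is a piece of whole tissue in which glial and vascular markers were detected.

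Dividing cells pass through DNA synthesis, a gap phase and mitosis. MCM helicase and nucleotide synthesis genes are switched on for replication by E2F factors, and the cyclin B, kinase, kinesin and spindle genes follow in G2 and mitosis under FOXM1, B-MYB and the DREAM and MuvB complexes. Neurons do not divide. In the adult brain these transcripts are known from the neural progenitors of the dentate gyrus and the subventricular zone, from oligodendrocyte precursors, and from microglia and infiltrating lymphocytes when these proliferate.

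Members were expressed at low levels. Total counts per library were between 19385642 and 58550621. In hippocampus they were between 19428512 and 32776892 with α-IgLON5#1 and between 39479753 and 52212204 with pCtrl, without overlap. The part of this difference in depth in the results was not tested. The median count of a member over the 27 libraries was between 9 for Bub1 and 1072 for Pcna. The median was under 20 for 8 members and at least 100 for 10. Levels are given as CPM, counts scaled to a common library size with TMM factors. Per kilobase of exonic sequence, the scale on which genes can be compared, the mean level in PBS hippocampi was highest for Pcna (11.9 CPM per kb) and Mcm6 (3.81 CPM per kb) and lowest for Bub1 (0.0506 CPM per kb) and Melk (0.0452 CPM per kb). The proliferation marker Mki67 lay between them at 0.528 CPM per kb. At these counts a difference of less than 2-fold in Bub1, Kif2c or Aurkb rests on a few reads.

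The first comparison asked whether the members differed between hippocampi infused with α-IgLON5#1 and with pCtrl. Levels were higher for 31 of the 36 members, and 6 passed the test, all of them up-regulated: the helicase genes Mcm2, Mcm3 and Mcm5, Ube2c, Mki67 and Kif2c. The test was edgeR's quasi-likelihood test with Benjamini-Hochberg adjustment over the 20271 genes, called at an adjusted p under 0.05. Over all tested genes, 4.23% were called higher and 2.78% lower in this comparison. With a fold change above 2 required as well, 3 members were called (Ube2c, Mki67 and Kif2c), where 2.21% of all genes were called higher. The median log2 fold change was 0.46 over the members and 0.00 over all tested genes. Of the members, 0 were called lower, 1 (Hmmr) was lower at an unadjusted p under 0.05, as were 2146 of all genes, and DESeq2 called 7 members higher, with 4.97% of all genes, and 0 lower. In bulk tissue, more dividing cells and more RNA per cell cannot be told apart.

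**Figure D1:**
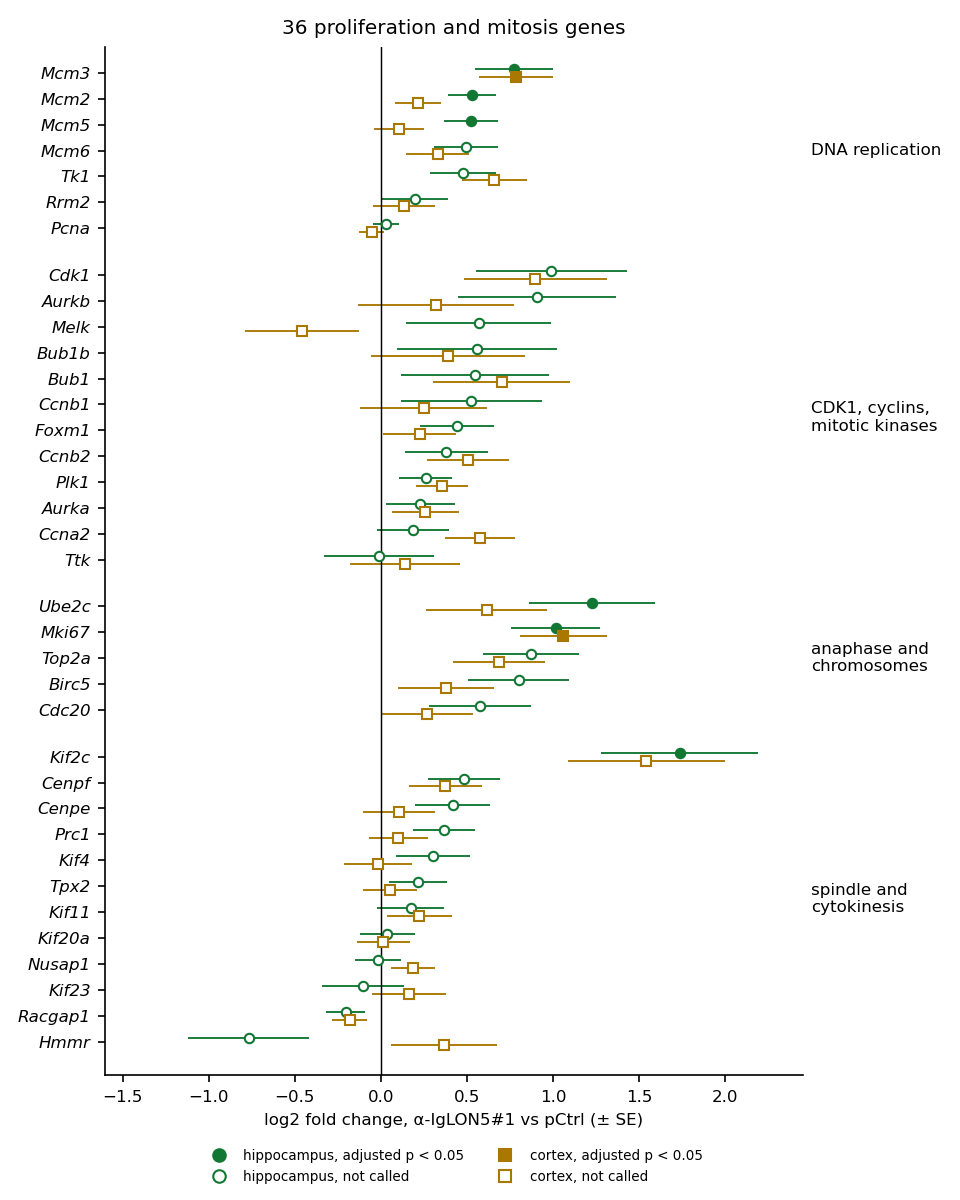
Log2 fold change (± SE) of each of the 36 members between α-IgLON5#1 and pCtrl, on the horizontal axis, in hippocampus (circles) and cortex (squares), with members ordered by role. Filled symbols have an adjusted p under 0.05: 6 members in hippocampus and 2 in cortex, all to the right of 0.

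Among the 7 replication genes, all had a fold change above 0. Mcm2, Mcm3, Mcm5 and Mcm6 encode subunits of the MCM2-7 helicase, which is loaded at replication origins and unwinds DNA. Mcm3 was at 6.05, 8.90, 5.12 and 4.81 CPM in the α-IgLON5#1 hippocampi of mice 8, 9, 16 and 17, and at 3.15, 3.65, 3.21 and 4.42 CPM in the pCtrl hippocampi of mice 10, 15, 37 and 75. The groups did not overlap, and mouse 9 was highest. The log2 fold change was 0.77 ± 0.23 (SE), or 1.71-fold, with an adjusted p of 0.0371 (edgeR). Mcm2 was at 8.07, 10.2, 6.53 and 6.68 CPM against 5.44, 5.72, 4.88 and 5.60 CPM, again without overlap and with mouse 9 highest. Its log2 fold change was 0.53 ± 0.14, or 1.44-fold (edgeR, adjusted p = 0.0197). Mcm5 was at 5.96, 8.39, 5.15 and 5.53 CPM against 3.90, 4.48, 4.14 and 4.74 CPM. The order of the 4 treated hippocampi was headed by mouse 9 here too, and the log2 fold change was 0.53 ± 0.16 (edgeR, adjusted p = 0.0399). Mcm6 (log2 fold change 0.49, adjusted p = 0.109, edgeR) and the thymidine kinase gene Tk1 (0.48, adjusted p = 0.137) were not called, although the Tk1 levels of the groups did not overlap. The sliding clamp gene Pcna, which also serves DNA repair in cells that do not divide, had a log2 fold change of 0.03 ± 0.08, and Rrm2, a subunit of ribonucleotide reductase, 0.20 ± 0.19.

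None of the 12 members encoding CDK1, its cyclins, mitotic kinases and FOXM1 was called, and 1 of them (Cdk1) had an unadjusted p under 0.05, as had 4431 of the 20271 genes, while 11 had a fold change above 0. Cdk1, the kinase that drives entry into mitosis, was at 0.394, 1.18, 0.736 and 0.573 CPM in α-IgLON5#1 hippocampi and at 0.327, 0.432, 0.404 and 0.246 CPM in pCtrl hippocampi. The groups overlapped at mouse 8, and the log2 fold change was 0.99 ± 0.44 (edgeR, adjusted p = 0.179). The log2 fold changes of the cyclins were 0.19 for Ccna2, 0.53 for Ccnb1 and 0.38 for Ccnb2. Aurkb, the kinase of the chromosomal passenger complex, had a value of 0.91, and Aurka and Plk1, which act at centrosomes and spindles, had 0.23 and 0.26. The spindle checkpoint genes Bub1 and Bub1b had 0.55 and 0.56, Melk 0.57 and Foxm1, a transcription factor of the G2 and mitosis genes, 0.44, while the checkpoint kinase gene Ttk had -0.01. Bub1b, singled out after its values were seen, was at 0.787 CPM in the hippocampus of PBS mouse 32 and at 0.785 CPM in that of pCtrl mouse 37, against 2.43 to 4.90 CPM in the other hippocampi, and the cortices of these mice were also the lowest (0.680 and 0.878 CPM).

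The 5 members that act at anaphase or on chromosomes had the highest median log2 fold change of the 4 role groups, 0.87, and 2 of them were called. Mki67 encodes the Ki-67 protein, which coats mitotic chromosomes. It was at 8.22, 11.2, 7.32 and 6.45 CPM in the α-IgLON5#1 hippocampi of mice 8, 9, 16 and 17 and at 3.99, 5.58, 2.66 and 4.03 CPM in the pCtrl hippocampi. Every treated hippocampus lay above every pCtrl hippocampus. The log2 fold change was 1.02 ± 0.26, or 2.02-fold (edgeR, adjusted p = 0.0170). Ube2c, the ubiquitin-conjugating enzyme of the anaphase-promoting complex, was at 0.443, 1.07, 0.613 and 0.573 CPM against 0.409, 0.244, 0.190 and 0.270 CPM. The groups did not overlap, on 8 to 20 counts per library, and the log2 fold change was 1.23 ± 0.37, or 2.34-fold (edgeR, adjusted p = 0.0407). Top2a, the topoisomerase that untangles sister chromatids, was at 3.54, 6.48, 4.01 and 3.67 CPM against 2.60, 2.35, 2.31 and 2.33 CPM, which did not overlap, and it missed the threshold (log2 fold change 0.87 ± 0.28, edgeR adjusted p = 0.0553). Birc5 (survivin, of the chromosomal passenger complex) had a log2 fold change of 0.80 and Cdc20, an activator of the anaphase-promoting complex, 0.58. Mki67, Ube2c, Top2a and Cdc20 overlap annotated genes on the opposite strand (Gm45240, Tnnc2, Gm26394 and Elovl1) and are 4 of the 16 members, of all roles, that overlap another gene, and whether the counting used strand is not stated in the sources used here.

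Of the 12 spindle and cytokinesis genes 1 was called, and their median log2 fold change was 0.19. Kif2c, a kinesin that depolymerises microtubules at kinetochores, was at 1.48, 1.46, 0.705 and 0.344 CPM in the α-IgLON5#1 hippocampi of mice 8, 9, 16 and 17 and at 0.307, 0.226, 0.262 and 0.344 CPM in the pCtrl hippocampi. Mice 8 and 9 stood far above the rest, while mouse 17 was level with the highest pCtrl hippocampus. The log2 fold change was 1.74 ± 0.46, or 3.33-fold (edgeR, adjusted p = 0.0206), the largest of the 36. The kinetochore genes Cenpe and Cenpf had log2 fold changes of 0.42 and 0.48 and the motors Kif11, Kif4 and Kif20a 0.17, 0.30 and 0.04. The central spindle genes differed among themselves, with 0.37 for Prc1, -0.10 for Kif23 and -0.21 for Racgap1. The microtubule-binding spindle genes Tpx2, Nusap1 and Hmmr had 0.22, -0.02 and -0.77. Hmmr was the lowest of all members and was spread from 0.442 to 1.93 CPM within pCtrl (edgeR, adjusted p = 0.198).

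Across the list, 8 of the 36 members had non-overlapping, higher levels in α-IgLON5#1 hippocampi (the 6 called members, Tk1 and Top2a), where 6.68% of all tested genes did. Kif2c is among them by a margin of 0.3439 against 0.3438 CPM, which is far less than 1 count. Mouse 9 was the highest of the 4 treated hippocampi in 27 of 36 members. The summed level of the members was 131, 172, 130 and 123 CPM in mice 8, 9, 16 and 17, and between 99.6 and 115 CPM in pCtrl hippocampi. PBS hippocampi were between 105 and 132 CPM, so that the highest PBS hippocampus, of mouse 14, overlapped the treated group. The treated mice were numbered 8, 9, 16 and 17, and mouse 14 was the only PBS mouse within that range. The other PBS mice were numbered 32, 33, 38 and 74. What the numbers stand for beyond the mouse is not stated, and their part in the comparisons was not tested. The count of called members depended on single libraries and was, on omission, 0 (mouse 9 of α-IgLON5#1 or mouse 37 of pCtrl), 1 (mouse 10 of pCtrl), 2 (mouse 8 of α-IgLON5#1), 4 (mouse 15 of pCtrl), 5 (mouse 75 of pCtrl) or 7 (mouse 16 or 17 of α-IgLON5#1). In that order, 2.53%, 2.33%, 2.52%, 2.56%, 5.20%, 4.09%, 5.22% and 4.49% of all genes were called higher. The count of members was 0 when the fit held only these 8 libraries, when it held only mice numbered 8 to 17 or when a score of cortical against hippocampal genes was a covariate. In these 3 fits 1.93%, 0.277% and 0.853% of all genes were called higher, so that calls were lost across all genes. The median log2 fold change of the members ranged from 0.28 to 0.52 with 1 library left out. It was 0.46 with only these 8 libraries, 0.39 with mice 8 to 17 and 0.22 with that covariate. The covariate lowered the log2 fold change of Mki67 to 0.36 (edgeR, adjusted p = 0.732), of Mcm3 to 0.37 (0.750), of Mcm2 to 0.30 (0.625), of Mcm5 to 0.34 (0.641), of Ube2c to 0.80 (0.645) and of Kif2c to 1.26 (0.544). The pCtrl hippocampi of mice 10 and 37 had a summed level of 5 cortical marker genes of 264 and 344 CPM, against 184 to 194 CPM in the other pCtrl hippocampi, 126 to 216 CPM with α-IgLON5#1 and 138 to 193 CPM with PBS, and beyond that covariate the part of this in the result was not tested.

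**Figure D2:**
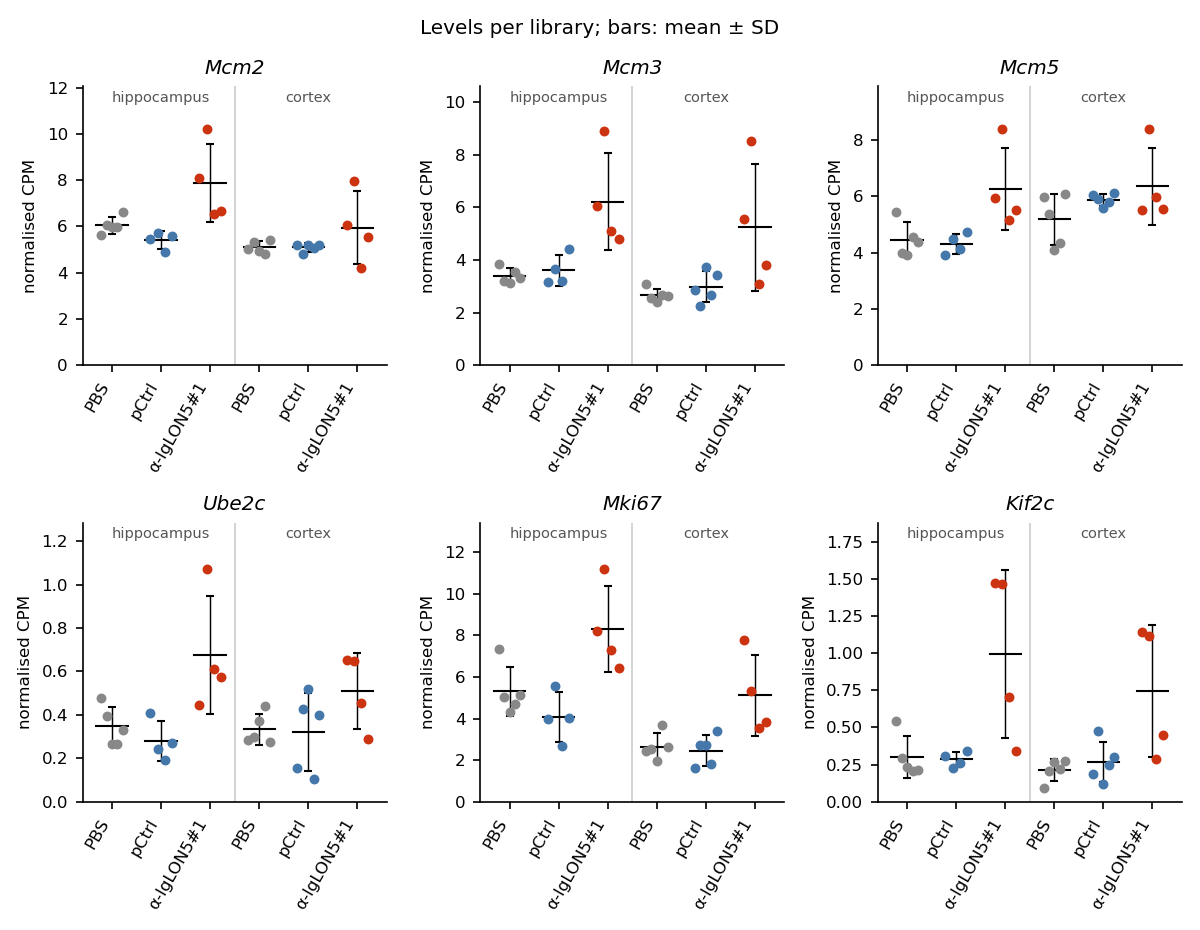
Normalised CPM (vertical axis, linear from 0) of the 6 members called in hippocampus, in every library of the 6 groups, with the mean and SD as bars. The α-IgLON5#1 points spread widely, with Kif2c between 0.344 and 1.48 CPM in hippocampus.

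The regions upstream of the start are shown for the called members whose RefSeq start has 150 upstream bases outside the GENCODE gene (GRCm38.p6, sequences from RefSeq, gene strand, 5′ to 3′), because replication and mitosis genes are known to carry different promoter elements. Capitals mark matches, on either strand, to the cell cycle genes homology region TTTGAA (bound by the MuvB complexes), to the CCAAT box CCAAT (bound by NF-Y) and to the E2F-type sites TTTCCCGC, TTTGGCGC and TTTCGCGC. None of these motifs contains another. Mcm2 lies at chr6:88898781-88898930, Mcm3 at chr1:20820313-20820462 and Mki67 at chr7:135716380-135716529, all on the minus strand, and Mcm5 at chr8:75109359-75109508 on the plus strand.
Mcm2: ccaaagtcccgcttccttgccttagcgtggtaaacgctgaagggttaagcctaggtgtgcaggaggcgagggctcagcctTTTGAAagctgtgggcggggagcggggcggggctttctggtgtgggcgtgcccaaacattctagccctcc
Mcm3: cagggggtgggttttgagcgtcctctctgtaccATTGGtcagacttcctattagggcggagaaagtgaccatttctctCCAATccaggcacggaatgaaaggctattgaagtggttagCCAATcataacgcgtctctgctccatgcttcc
Mcm5: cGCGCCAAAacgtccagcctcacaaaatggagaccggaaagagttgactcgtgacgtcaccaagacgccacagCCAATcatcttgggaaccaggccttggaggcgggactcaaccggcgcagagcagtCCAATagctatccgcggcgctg
Mki67: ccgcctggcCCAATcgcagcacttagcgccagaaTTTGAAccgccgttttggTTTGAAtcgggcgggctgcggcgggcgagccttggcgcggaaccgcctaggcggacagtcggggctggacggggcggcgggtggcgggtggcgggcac
Mki67 had 2 matches to TTTGAA and 1 CCAAT box, Mcm3 had 3 CCAAT boxes, Mcm5 had 2 CCAAT boxes and 1 E2F-type site, and Mcm2 had 1 match to TTTGAA. The bases that follow the RefSeq start were found in a GENCODE transcript of the gene for 28 of 32 member promoters but not for Mcm5, so that its window may not lie before a start of that annotation. Of the 36 members, 31 matched a promoter entry, with 32 promoters in all. A CCAAT box was found in 26 of 32 (81.2%), against 24.5% of the 32851 promoters of the table. TTTGAA was found in 9 of 32 (28.1%, against 9.07%) and an E2F-type site in 3 of 32 (9.38%, against 1.02%). By role, TTTGAA was found in 4 of the 5 promoters of the anaphase and chromosome genes, in 1 of 7 of the replication genes, in 1 of 9 of the CDK1 and kinase group and in 3 of 11 of the spindle genes. A match describes the letters only.

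In the same comparison in cortex, levels were higher for 32 of 36 members, the median log2 fold change was 0.26 (all tested genes, -0.01), and 2 members were called, both up-regulated. The treated cortices came from the same mice as the treated hippocampi, so that they are not an independent replicate. Over genes, deviations from group means correlated between the tissues of mice 8, 9, 16 and 17 by 0.443, 0.420, 0.263 and 0.374. The fit treated all libraries as independent. Of all genes, 3.01% were called higher and 0.449% lower. Members called lower numbered 0, and 0 were lower at an unadjusted p under 0.05 (edgeR), where 1413 of all genes were, while DESeq2 called 4 higher, with 3.52% of all genes, and 0 lower, with 204 genes. Mki67 was at 7.80, 5.34, 3.55 and 3.82 CPM in the α-IgLON5#1 cortices of mice 8, 9, 16 and 17 and at 1.60, 2.72, 2.73, 1.83 and 3.39 CPM in the pCtrl cortices of mice 10, 11, 15, 37 and 75. The groups did not overlap, and in this tissue mouse 8 was highest. The log2 fold change was 1.06 ± 0.25, or 2.08-fold (edgeR, adjusted p = 0.0138), so Mki67 was the 1 member with a fold above 2 among the called, where 2.14% of all genes were called higher at that fold. Mcm3 was at 5.54, 8.52, 3.10 and 3.80 CPM against 2.85, 2.24, 3.74, 2.67 and 3.43 CPM. Mouse 16 lay within the pCtrl range, and the log2 fold change was 0.78 ± 0.22, or 1.72-fold (edgeR, adjusted p = 0.0397). Kif2c, at 1.14, 1.12, 0.286 and 0.448 CPM against 0.118 to 0.479 CPM, missed the threshold (log2 fold change 1.54 ± 0.46, edgeR adjusted p = 0.0594), and only mice 8 and 9 lay above the pCtrl range.

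Apart from these, the cortical log2 fold changes of the members were 0.66 for Tk1 (edgeR, adjusted p = 0.0518), 0.90 for Cdk1, 0.70 for Bub1, 0.69 for Top2a and 0.57 for Ccna2, and between -0.46 (Melk) and 0.61 (Ube2c) for the others, with Pcna, Melk, Kif4 and Racgap1 below 0. Levels of 2 members (Mki67 and the kinase gene Plk1) were higher without overlap, where 3.68% of all genes were. Mouse 9 was the highest treated cortex in 18 members and mouse 8 in 11, while mouse 16 was the lowest in 19. The count of called members was 0 when mouse 8 of α-IgLON5#1 or mouse 10 or 37 of pCtrl was left out, 1 when mouse 9 was and 4 when mouse 16 was. In that order, 1.53%, 2.27%, 2.36%, 2.71% and 3.88% of all genes were called higher. The count of members was also 0 with only these 9 libraries, with mice numbered 8 to 17 and with the tissue covariate, where 1.60%, 0.0512% and 1.70% of all genes were called higher, while the median log2 fold change of the members was between 0.19 and 0.42 over the alternatives, left-out libraries included.

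**Figure D3:**
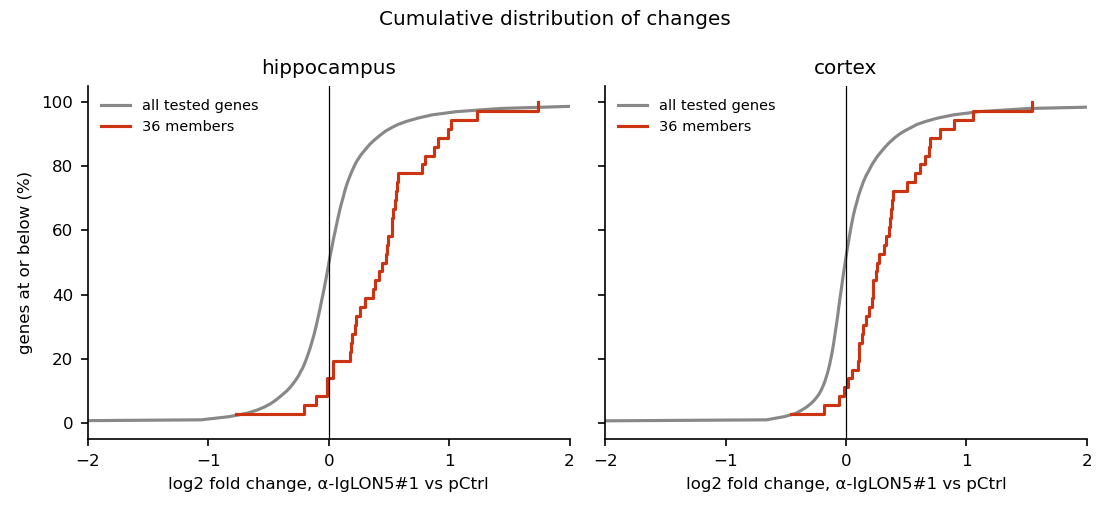
Cumulative share of genes (vertical axis, %) at or below each log2 fold change of α-IgLON5#1 against pCtrl (horizontal axis), for all 20271 tested genes and for the 36 members, in hippocampus and cortex. The members' curve lies to the right of the curve of all genes over most of its range, with medians of 0.46 and 0.26.

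Against PBS, which shares the α-IgLON5#1 libraries with the comparisons above, 34 of 36 members were higher in hippocampus (median log2 fold change 0.40) and 3 were up-regulated, where 3.81% of all genes were called higher and 0.474% lower. These were Mcm3 (log2 fold change 0.86 ± 0.22, adjusted p = 0.0159, edgeR), Kif2c (1.68 ± 0.44, adjusted p = 0.0205) and Melk (1.68 ± 0.45, adjusted p = 0.0261). Melk, a kinase of neural progenitors and other dividing cells, was at 0.591, 0.845, 0.245 and 0.229 CPM with α-IgLON5#1, at 0.245, 0.414, 0.214 and 0.295 CPM with pCtrl and at 0.171, 0.164, 0.0880, 0.178 and 0.0706 CPM with PBS. All treated hippocampi thus lay above all PBS hippocampi but not above all pCtrl hippocampi, on 3 to 22 counts per library. Mki67 was at 7.33, 5.05, 4.31, 4.72 and 5.13 CPM in PBS hippocampi, of which the first, of mouse 14, lay among the treated hippocampi, and its difference from PBS was not called (log2 fold change 0.64 ± 0.24, edgeR adjusted p = 0.166). Mcm3 and Melk were the 2 members without overlap, where 4.49% of all genes were higher without overlap. The count was 0 when mouse 9 was left out, 1 when mouse 8 of α-IgLON5#1 or mouse 33 or 74 of PBS was, and 6 when mouse 14 of PBS was or with the tissue covariate, and DESeq2 called 5. In that order of fits, 3.29%, 2.73%, 3.18%, 3.16%, 3.84%, 4.21% and 4.21% of all genes were called higher.

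In cortex, 31 of 36 members were higher than with PBS (median log2 fold change 0.26) and 3 were up-regulated, where 2.97% of all genes were called higher and 0.0740% lower. Mcm3 had a log2 fold change of 0.96 ± 0.22 (edgeR, adjusted p = 0.00742), Kif2c 1.75 ± 0.45 (0.0266) and Mki67 0.94 ± 0.25 (0.0314). Kif2c was at 0.0939, 0.207, 0.269, 0.221 and 0.275 CPM in PBS cortices, below the lowest treated cortex at 0.286 CPM. The highest PBS cortex had 10 counts and this treated cortex 12, and the gap in CPM is less than 1 count. Non-overlapping, higher levels were seen for 3 members (Mcm3, Bub1 and Kif2c), where 3.14% of all genes had them. When mouse 9 was left out, or with only these 9 libraries, 0 members were called, and 1 when mouse 8 of α-IgLON5#1 or mouse 32 of PBS was left out. In that order of fits, 2.90%, 1.63%, 1.76% and 2.52% of all genes were called higher. In both tissues, 0 members were called lower than with PBS, 0 were lower at an unadjusted p under 0.05 (edgeR), and DESeq2 called 0 lower.

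The 2 control infusions were then compared. Between pCtrl and PBS, 0 of 36 members were called in hippocampus, where 0.192% of all genes were called in either direction, and 0 in cortex, where 0% were (edgeR, and 0 in both tissues with DESeq2). At an unadjusted p under 0.05 there were 2 members in hippocampus (Melk, 1.11 on the log2 scale, and Kif23, 0.50), where 14.0% of all genes passed, and 2 in cortex (Cenpf, -0.46, and Pcna, 0.14), where 8.14% passed. Of the members 18 were higher and 18 lower in each tissue, with medians of -0.01 and 0.00. With the tissue covariate, 30 of 36 were higher in hippocampus with pCtrl, with a median of 0.21 and 0 called, and 24 of 36 in cortex, with a median of 0.11 and 0 called. Without PBS mouse 14, 25 of 36 were higher in hippocampus, with a median of 0.13 and 0 called. Mki67, at 4.07 ± 1.19 CPM (mean ± SD, n = 4) with pCtrl and 5.31 ± 1.18 CPM (n = 5) with PBS in hippocampus, had a log2 fold change of -0.38 ± 0.24 (edgeR, adjusted p = 0.528).

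Whether the α-IgLON5#1 difference from pCtrl itself differed between tissues was tested as an interaction. Of the members 0 were called, as were 0% of all genes, and 1 member (Hmmr) had an unadjusted p under 0.05, where 10.6% of all genes did (edgeR, with 0 members called by DESeq2). The difference between tissues in the log2 fold change was -0.04 ± 0.36 for Mki67 and -0.01 ± 0.31 for Mcm3, and 0.32 ± 0.19 for Mcm2 and 0.42 ± 0.21 for Mcm5, which were called in hippocampus only. For Hmmr it was -1.14 ± 0.47 (adjusted p = 0.366). These intervals are wide, so equal responses are not shown.

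In PBS mice, where no antibody was given, 4 members were higher in hippocampus than in cortex and 3 were lower, where 12.7% of all genes were called higher and 14.1% lower. Mcm6 was at 17.8 CPM in hippocampus and 7.76 CPM in cortex (means, n = 5 each, without overlap), a log2 difference of 1.19 ± 0.17 (edgeR, adjusted p = 6.83e-06). Mki67 was at 5.31 ± 1.18 CPM in hippocampus and 2.65 ± 0.64 CPM in cortex (SD, n = 5 each), a log2 difference of 1.00 ± 0.24 (adjusted p = 0.00226), and Tk1 (0.75, adjusted p = 0.00186) and Nusap1 (0.35, adjusted p = 0.0292) were also higher in hippocampus. The members higher in cortex were Melk (-2.39 ± 0.39, adjusted p = 3.55e-05), Racgap1 (-0.84 ± 0.10, adjusted p = 3.85e-07) and Kif23 (-0.82 ± 0.21, adjusted p = 0.00464). In α-IgLON5#1 mice the mean level of Mki67 was 8.30 CPM in hippocampus and 5.13 CPM in cortex. The number on a library's title, which both tissues of a mouse share, was used as a replicate block in 1 alternative, in which 6 members were higher, where 12.9% of all genes were, and 4 lower.

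Other cell cycle genes were read from 3 further lists. Of 28 other replication genes, 20 had a higher level with α-IgLON5#1 than with pCtrl in hippocampus (median log2 fold change 0.15), 1 rose and 1 fell, shares close to the 4.23% and 2.78% of all genes. Gins2, of the GINS complex that partners the MCM helicase, rose (0.84 ± 0.24, edgeR adjusted p = 0.0356), and Dtl, which targets replication factors for degradation, fell (-1.25 ± 0.27, adjusted p = 0.00408). Dtl was at 5.50, 4.12, 8.16 and 2.53 CPM in the pCtrl hippocampi of mice 10, 15, 37 and 75, against 1.52 to 2.94 CPM with α-IgLON5#1 and 1.46 to 3.17 CPM with PBS. It was highest in the same 2 pCtrl hippocampi as the cortical markers, and in PBS mice its mean was 11.2 CPM in cortex and 2.43 CPM in hippocampus. The replication-linked methylation cofactor Uhrf1 (0.96, adjusted p = 0.0750) and the chromatin assembly gene Chaf1b (0.62, adjusted p = 0.170) were not called.

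Of 50 other mitosis genes 49 were tested, 37 were higher in α-IgLON5#1 hippocampi (median 0.23) and 1 rose, a smaller share than the 4.23% of all genes. This was Iqgap3, a scaffold of proliferating cells. It was at 1.03, 3.04, 1.72 and 0.888 CPM in mice 8, 9, 16 and 17 and at 0.540 to 0.642 CPM with pCtrl, without overlap and with mouse 9 highest (log2 fold change 1.41 ± 0.30, edgeR adjusted p = 0.00386). Pimreg (1.17, adjusted p = 0.0713), the separase gene Espl1 (0.57, adjusted p = 0.0731) and the chromosomal passenger gene Cdca8 (0.62, adjusted p = 0.0779) were not called. Of 27 genes of G1 and cell cycle inhibition 26 were tested, with a median of 0.04, and 2 rose: Trp53, the p53 tumour suppressor (0.51 ± 0.10, adjusted p = 0.00217), and Cdk4, a G1 kinase (0.20 ± 0.06, adjusted p = 0.0372). The inhibitor genes Cdkn1b and Cdkn2b had log2 fold changes of -0.26 and 0.82 (adjusted p = 0.0845 and 0.0865). In cortex, 1 gene of the first list rose (Uhrf1, 1.21 ± 0.32, adjusted p = 0.0288), 1 of the second (Kif15, a spindle kinesin, 0.52 ± 0.15, adjusted p = 0.0453) and 0 of the third, where 3.01% of all genes were called higher, and these cortical genes were named after their values were seen.

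Markers of cells that could carry the members' transcripts moved as follows in hippocampus between α-IgLON5#1 and pCtrl. Of 7 microglial markers 5 rose, and their summed level was 391, 693, 549 and 404 CPM in mice 8, 9, 16 and 17, against 311 to 350 CPM with pCtrl and 281 to 341 CPM with PBS. All 5 B-cell markers rose, with sums of 8.76, 3.38, 4.23 and 7.22 CPM against 0.690 to 1.17 CPM with pCtrl and 0.518 to 1.05 CPM with PBS. The plasma cell marker sum was 59.4, 7.15, 44.1 and 88.4 CPM, against 3.36 to 4.29 CPM with pCtrl, although the marker Tnfrsf17 was at 0 in at least 1 treated hippocampus. Mouse 9 was highest for the members and the microglial markers and lowest for the B-cell and plasma cell markers, while the members' sums of mice 8, 16 and 17 lay close together. In cortex, 1 of 7 microglial and 3 of 5 B-cell markers rose. The cortical microglial sum was 374, 418, 416 and 396 CPM in mice 8, 9, 16 and 17 (308 to 373 CPM with pCtrl), where the members' sum was 130, 147, 106 and 111 CPM, so that mouse 16 was second for the microglial markers and lowest for the members. Also in cortex, 1 of 3 tested T-cell markers rose (sum 3.18 ± 1.14 CPM, mean ± SD, n = 4, against 1.25 ± 0.23 CPM with pCtrl, n = 5), as did 1 of 4 tested plasma cell markers (up to 35.1 CPM, against at most 3.79 CPM with pCtrl) and 2 of 4 tested monocyte and neutrophil markers. The last sum was 10.2 ± 12.1 CPM against 2.62 ± 0.90 CPM, and mouse 8, which was also highest for Mki67, reached 28.3 CPM. The astrocyte gene Gfap rose in cortex, to 1290, 532, 441 and 524 CPM against 189 to 333 CPM, and 1 of 5 cortical markers (Rorb) fell.

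Among the remaining lists in hippocampus, 2 of 4 tested plasma cell markers, 1 of 3 tested T-cell markers and 1 of 4 tested monocyte and neutrophil markers rose, as did 1 of 5 astrocyte markers (Gfap). None of the 5 oligodendrocyte precursor markers and none of the 7 markers of newborn neurons was called in either tissue. The sum of the latter was 137 to 168 CPM with α-IgLON5#1, 116 to 171 CPM with pCtrl and 160 to 184 CPM with PBS in hippocampus. Of 5 neuronal markers 1 fell, of 5 cortical markers 1 fell, and 0 of 5 endothelial, 0 of 4 tested choroid plexus and 0 of 5 hippocampal markers were called. Defining microglial markers were above 0 in every library. What part any of these cells had in the members' levels was not tested.

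**Figure D4:**
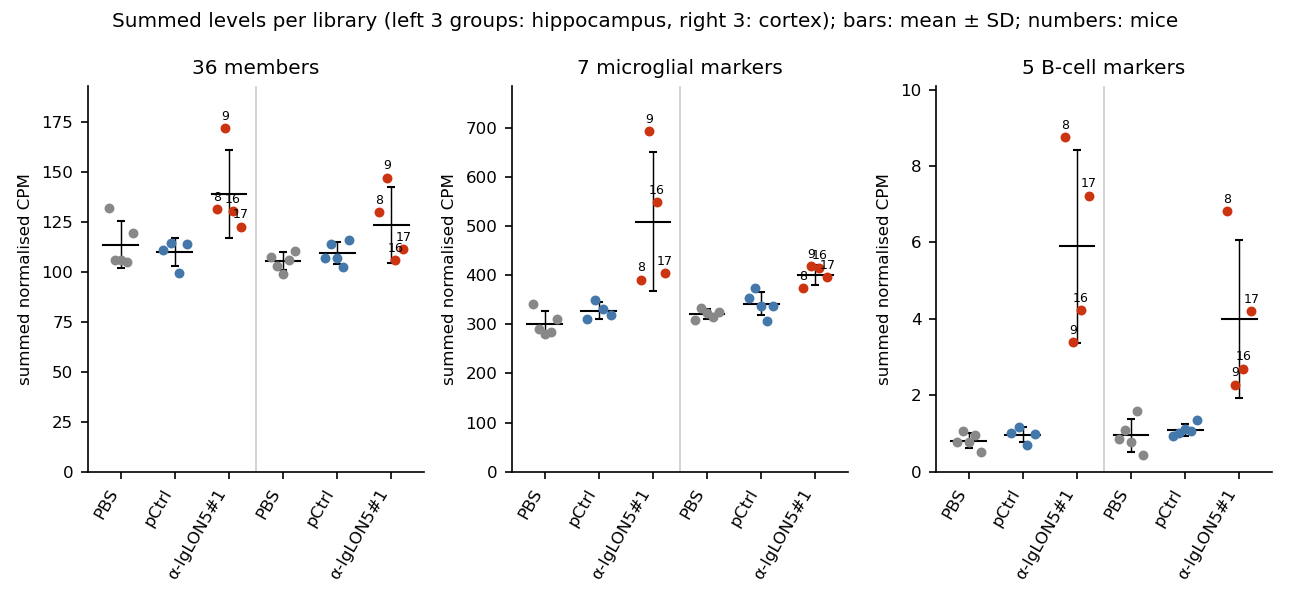
Summed normalised CPM (vertical axes, linear from 0) of the 36 members, 7 microglial markers and 5 B-cell markers in every library, with mean and SD as bars and mouse numbers beside the α-IgLON5#1 points. Among the α-IgLON5#1 points mouse 9 is highest for the members in both tissues, and the order of the mice differs between the panels.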

How the data were processed

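RNA of contralateral cortex and hippocampus of 14 infused mice was sequenced as 27 stranded mRNA libraries (paired-end). The authors aligned reads to GRCm38 with STAR at default settings (the submitters' processing notes give version 1.4.0) and deposited raw counts, which are whole numbers per gene and library. The counting program, annotation and strand setting are not given in the sources used here. Of the 55487 gene identifiers, 55227 were found in GENCODE M21, the source of symbols, positions and exonic lengths. No column of the table was left unassigned.

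Groups and mouse numbers came from the sample titles and treatment labels. Genes reaching 10 counts in 4 or more libraries were fitted in R 4.3.3 with edgeR 4.0.16 (TMM, quasi-likelihood F-test, 6 groups of tissue and treatment, all libraries), with adjustment over all 20271 genes. CPM levels use TMM library sizes. The scripts were tested on simulated data. All members were named. Of each further cell cycle list the 4 genes with the smallest adjusted p in hippocampus, α-IgLON5#1 against pCtrl, were named. The members, the lists and the tests were chosen with earlier results of these data known.

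Over genes, deviations from group means correlated between the 2 tissues of a mouse by -0.0498 to 0.443 (median 0.194, above 0.1 in 8 of 13 mice). Libraries of a group differed by more than counting noise (chi-square per degree of freedom at least 4.82 in the 48 pairs). Alternatives were DESeq2 1.42.0, RLE scaling, other count filters, fewer libraries, each library left out, a replicate block, and a tissue covariate made from the 100 genes highest and the 100 lowest in hippocampus against cortex of PBS mice by p, with a mean log2 CPM above 3 in PBS libraries and without the members. Promoter sequences came from RefSeq (GRCm38.p6).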

Additional observations from a re-analysis of the deposited data

Results flagged for a closer look

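Of 48 sets of values examined (the 7 members called in a treatment comparison and the members' sum, in each of the 6 groups), 3 held a library whose gap to its nearest neighbour exceeded Dixon's 95% limit, which chance passes in about 1 in 20 sets. In PBS hippocampi, mouse 14 was the highest for Mki67 (7.33 CPM, with a gap of 0.728 of the group's range) and for Kif2c (0.546 CPM, gap 0.741). In α-IgLON5#1 cortices, mouse 9 was the highest for Mcm5 (8.41 CPM, gap 0.841). The difference between α-IgLON5#1 and pCtrl did not differ between tissues at an adjusted p under 0.05 for any member (edgeR, 1 member at an unadjusted p under 0.05, DESeq2 0), and for the comparisons with PBS the difference between tissues was not tested.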

How the results depend on the processing

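The direction of the members as a list was kept in each treatment comparison with α-IgLON5#1 under every alternative run, but the calls were not. In hippocampus against pCtrl, the count of 6 became 0 with only the groups compared, 0 with the tissue covariate and 0 with mice 8 to 17 (genes called higher in all: 857 became 362, 173 and 54). It was 7 with DESeq2 (4.97% of all genes called higher), 4 with no count filter (1.84%) and 4 with at least 10 counts in every library (4.33%, 26 members tested). With 1 library left out it ranged from 0 to 7 (2.33% to 5.22% of all genes). Against PBS, the count of 3 became 5 with DESeq2 (4.21% of all genes called higher) and 1 with at least 10 counts in every library (3.12%, 26 members tested). It was 1 with only the groups compared (2.98%, 35 members tested) and 6 with the tissue covariate (4.21%). With 1 library left out it ranged from 0 to 6 (2.73% to 4.27%). In cortex against pCtrl, the count of 2 became 4 with DESeq2 (3.52% of all genes called higher) and 0 with only the groups compared, the tissue covariate or mice 8 to 17 (610 genes in all became 297, 344 and 10). With 1 library left out it ranged from 0 to 4 (1.53% to 3.88%). Against PBS in cortex, the count of 3 became 0 with only the groups compared (603 genes in all became 306). It was 4 with DESeq2 (3.29% of all genes called higher) and 2 with at least 10 counts in every library (2.33%, 26 members tested). With 1 library left out it ranged from 0 to 4 (1.76% to 3.48%). Restricting the fit leaves fewer samples to estimate the spread and also changes which groups that estimate comes from. The SD of the members' summed level was 22.2 and 18.9 CPM in α-IgLON5#1 hippocampi and cortices. It was between 4.45 and 11.8 CPM in the PBS and pCtrl groups. The cause of the change in calls was not tested for any alternative. Of the single members called, the fold change kept its sign in 206 of 206 refits and the call in 122. With the replicate block, 6 members were higher and 4 lower in hippocampus than in cortex of PBS mice (4 and 3 without it) and 0 were called in the interaction (0 without it). Median counts under 20 in 8 members limit what could be detected.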
